A study of Mus musculus with 12 samples.

Results

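Colony-stimulating factors and interleukins are secreted proteins that cells use to regulate the growth and activation of blood and immune cells. Csf1 supports macrophages, Csf2 (GM-CSF) supports granulocytes and macrophages, and Csf3 (G-CSF) supports neutrophils. Il6 and Lif signal through the shared receptor subunit Il6st, and Il1a and Il1b signal through Il1r1, where Il1rn acts as the antagonist. Epithelial and tumour cells can also make several of these proteins, and transcription of Csf2, Csf3 and Il6 is known to respond to NF-kB.

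The genes considered were Csf1, Csf2, Csf3, Il6, Lif, Il1a, Il1b and Il1rn, and they were found as the probes that the array annotation matched to these symbols alone. Of these 8 genes, 7 had a probe, 1 each, among 13840 genes with such a probe on the array. The probes were 596035 for Csf2, 447283 for Csf3, 924312 for Il6, 645865 for Lif, 595893 for Il1a, 734612 for Il1b and 778297 for Il1rn. Csf1 was not analysed here because the annotation used gave it no probe.

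The levels were read on 12 Applied Biosystems arrays of 1 colour from MMT cells, a line grown from a mouse mammary tumour (ATCC CCL-51). All groups were this line grown in DMEM with fetal calf serum, and 4 groups were compared: untransfected cells (2 arrays), cells given a control siRNA (siCtrl, 3 arrays), cells given an siRNA against Erm, the older name of Etv5 (siErm, 3 arrays), and cells given an siRNA against Pea3, the older name of Etv4 (siPea3, 4 arrays). Erm and Pea3 are ETS transcription factors, and the study compared cells with less of either with siCtrl cells, and all with untransfected cells to show the effect of the transfection protocol. The sources used here do not give the siRNA sequences, the dose or the time after transfection, and the replicates are described as biological. The treatment field reads as siRNA transfection for every sample, the untransfected ones included. Their titles name no siRNA and the design text gives them as the check of the transfection protocol, so they were taken as untransfected, and each comparison with them rests on that reading.

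Between 34.2% and 41.9% of probes were detected per array, meaning a signal at least 3 times the noise. siPea3 array 2 stood apart, with the lowest share and an upper quartile of signal of 7.47 against 10.2 to 14.4 on the other arrays. The targeted gene Etv4 had a mean of 36.9 ± 5.89 (SD, n = 3) on siCtrl and 19.0 ± 2.17 (n = 4) on siPea3 arrays, a log2 difference of -0.95 ± 0.24 (SE) that missed the threshold (adjusted p = 0.195). Etv5 was detected on no siErm and no siPea3 array and on 2 of 3 siCtrl arrays, near background, so the effect of the siRNA against Erm on its target could not be read here. The untransfected arrays had Etv5 signals of 1.05 and 23.7, with detection on 1 of 2. Against siCtrl cells Etv5 differed by -0.902 ± 0.925 in siErm and -1.058 ± 0.865 in siPea3 cells, and neither passed. Of the epithelial markers, Krt8, Krt18, Krt19 and Cldn4 were detected on all arrays and Epcam and Cdh1 on none. Of 9 macrophage markers 5 had a probe. Cd14 and Lyz2 were detected on every array, Ptprc and Adgre1 on none, and the summed signal of the list was 41.3 to 58.2 on untransfected, 39.2 to 69.7 on siCtrl, 38.5 to 54.2 on siErm and 40.3 to 71.6 on siPea3 arrays.

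The promoter windows of Csf2 and Il6 are shown because these genes had the largest differences of the tested members from untransfected cells in siErm and siPea3 cells. They are RefSeq sequences of build GRCm38.p6 from 250 bases before to 50 bases after the annotated start, read 5′ to 3′ on the gene's strand, at chr11:54249850-54250149 (minus strand) and chr5:30012864-30013163 (plus strand). Capitals mark matches, on either strand, to the kB motif bound by NF-kB (GGG and CC, 5 bases apart), an AP-1 motif (TGANTCA), a C/EBP motif (TTNNGCAA) or the CK-1 motif (GAGATTCC).
Csf2: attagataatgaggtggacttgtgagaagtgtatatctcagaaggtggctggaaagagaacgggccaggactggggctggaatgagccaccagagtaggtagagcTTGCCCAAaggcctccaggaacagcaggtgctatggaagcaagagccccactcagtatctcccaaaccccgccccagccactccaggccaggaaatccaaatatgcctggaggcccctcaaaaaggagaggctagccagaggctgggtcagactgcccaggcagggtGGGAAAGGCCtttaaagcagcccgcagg
Il6: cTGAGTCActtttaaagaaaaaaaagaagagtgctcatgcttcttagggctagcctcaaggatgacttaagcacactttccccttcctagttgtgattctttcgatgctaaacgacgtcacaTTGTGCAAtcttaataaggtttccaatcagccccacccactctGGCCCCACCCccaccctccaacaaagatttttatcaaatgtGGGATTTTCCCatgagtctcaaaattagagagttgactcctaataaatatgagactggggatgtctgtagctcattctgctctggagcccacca
In the Il6 window the kB motif matched 3 times, and 2 of these matches overlap each other as the same run of capitals nearest the start. AP-1 and C/EBP each matched once there. The Csf2 window held 1 kB match, after the annotated start, and 1 C/EBP match, and neither window held CK-1. Of the tested members that were not called, the Lif window held 4 kB matches and 1 AP-1 match, and the Il1a window 0 kB matches and 1 AP-1 match. The reference used held no window for Csf3. Over 32851 windows of the same length, 50.8% held the kB motif, 7.8% AP-1, 10.8% C/EBP and 0.9% CK-1. The ETS core GGAA, which is not capitalised, matched 6 times in the Csf2 and 4 times in the Il6 window and was present in 96.0% of all windows. A match describes these letters and does not show that a factor binds them.

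Csf2, Csf3 and Il6 were detected on all 12 arrays, and all 3 lay higher in every transfected group than in untransfected cells. They parted between the siRNAs: the highest Csf2 and Il6 signals were in siPea3 cells, where Csf3 was lower than on any siCtrl array. The order of group means from low to high was untransfected, siCtrl, siErm, siPea3 for Csf2, and untransfected, siErm, siCtrl, siPea3 for Il6. For Csf3 it was untransfected, siPea3, siErm, siCtrl. Signals are the deposited normalized values on a linear scale, which cannot be set against each other between probes. In RNA from whole cultures, fewer cells making a cytokine and less of its RNA per cell cannot be told apart.

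**Figure D1:**
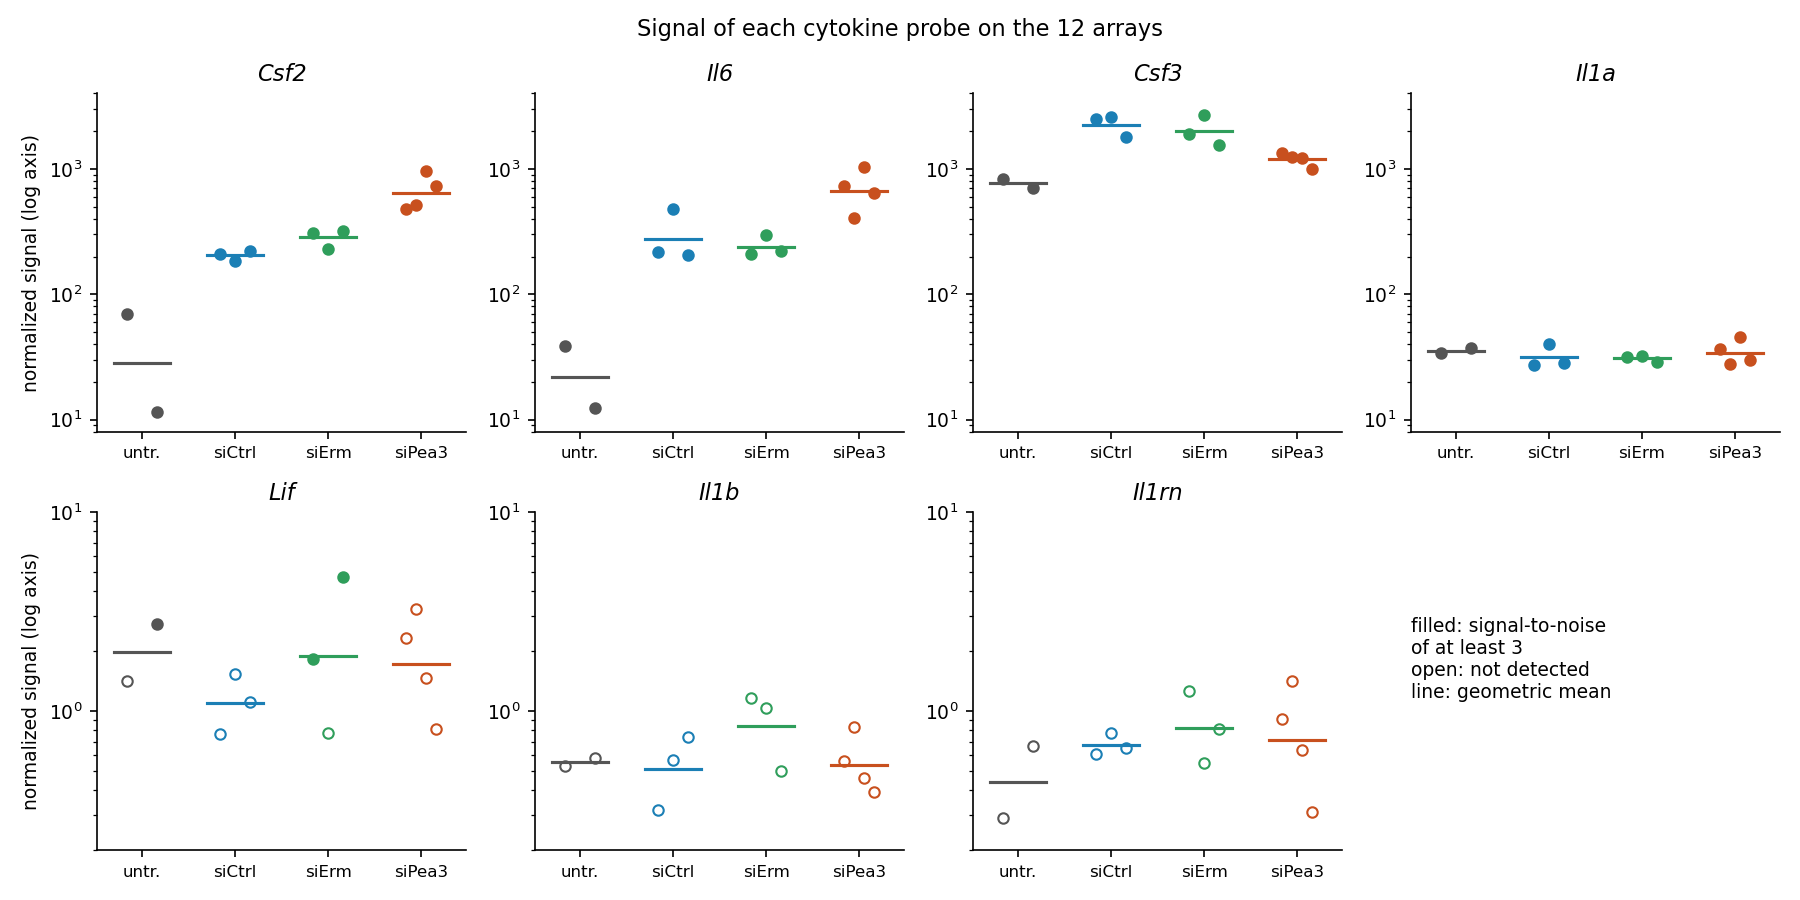
Normalized signal (log axis) of the 7 cytokine probes on each array, by group, with the geometric mean as a line. Filled points were detected and open points were not. The 4 siPea3 arrays lie between 476 and 971 for Csf2, above all other arrays, and between 995 and 1342 for Csf3, below all siCtrl and siErm arrays.

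Csf2, the granulocyte-macrophage factor, had a signal of 69.3 and 11.4 on the untransfected arrays, 208, 185 and 223 on the siCtrl arrays, 308, 231 and 322 on the siErm arrays, and 476, 514, 971 and 729 on the siPea3 arrays. The 4 groups did not overlap, and the untransfected arrays differed most among themselves. Il6, a cytokine of inflammation, had a signal of 38.6 and 12.4 on the untransfected arrays, 217, 478 and 206 on the siCtrl arrays, 209, 298 and 221 on the siErm arrays, and 731, 408, 1044 and 638 on the siPea3 arrays. Untransfected cells were again lowest and siCtrl and siErm cells overlapped, while siCtrl array 2 reached above siPea3 array 2.

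Csf3, the neutrophil factor, had a signal of 838 and 709 on the untransfected arrays, 2492, 2578 and 1793 on the siCtrl arrays, 1900, 2698 and 1551 on the siErm arrays, and 1342, 1241, 1232 and 995 on the siPea3 arrays. The siPea3 arrays lay between the untransfected arrays and the other transfected arrays, with no overlap on either side. On siCtrl array 3 the signal-to-noise ratio of Csf2, Csf3 and Il6 was 4.76, the lowest of any array for these probes.

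Il1a, an interleukin-1 that acts as a signal of cell damage, was detected on all 12 arrays at a near-even level. Its signal was 33.7 and 37.5 on the untransfected arrays, 27.2, 40.1 and 28.1 on the siCtrl arrays, 31.4, 32.1 and 28.8 on the siErm arrays, and 36.4, 27.5, 45.2 and 29.9 on the siPea3 arrays. The siErm arrays all lay below the untransfected arrays, and the other groups overlapped with them. Lif, a cytokine of the Il6 family, was close to background, with 0.77 to 4.71 over all arrays, and was detected on 3 arrays only, untransfected array 2 and siErm arrays 1 and 3. Il1b (0.32 to 1.16) and its family's antagonist Il1rn (0.29 to 1.42) were detected on 0 of 12 arrays. These were therefore not well above background in any group and were not tested.

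Transfection with the control siRNA was compared with no transfection first. Il6 and Csf3 rose in siCtrl cells. The log2 change was 3.66 ± 0.55 (SE) for Il6, a 12.7-fold difference (limma, adjusted p = 0.0101), and 1.55 ± 0.31 for Csf3, 2.93-fold (adjusted p = 0.0405). Csf2 differed by 2.87 ± 0.61 and did not pass (adjusted p = 0.0546). Lif (-0.85 ± 0.74) and Il1a (-0.18 ± 0.29) did not pass either. Called higher were thus 2 of the 5 tested members and lower 0, against 0.903% of all 16724 probes called higher and 0.12% lower. Csf2, Csf3 and Il6 did not overlap with the untransfected arrays, as for 12.6% of probes on the higher side. The count was 1 without the filter on dim probes and 0 when only the arrays of these groups were fitted or replicate number was a term of the fit (Il6 adjusted p = 0.0571 with that block). Il6's estimate ran from 2.85 without untransfected array 2 to 4.48 without untransfected array 1. Csf3's call was lost without any 1 of the 5 arrays, and Csf2's estimate ran from 1.56 without untransfected array 2 to 4.17 without untransfected array 1 (adjusted p = 0.0062), where it passed. It also passed after quantile normalization (adjusted p = 0.0464), after scaling over probes detected on all arrays (0.0446) and with an intensity trend (0.0116).

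The same untransfected arrays served as the reference for siErm and siPea3 cells, so these comparisons are not independent of the one above. In siErm cells Csf2 rose by 3.34 ± 0.61 on the log2 scale, 10.1-fold (adjusted p = 0.032), and Il6 rose by 3.45 ± 0.55, 11-fold (adjusted p = 0.0156). Csf3 differed by 1.37 ± 0.31 (adjusted p = 0.0781), Il1a by -0.21 ± 0.29 and Lif by -0.07 ± 0.74, and none of these passed. The count of 2 of 5 members called higher stands beside 0.7% of all probes, and the 0 called lower beside 0.0837%. Csf2, Csf3 and Il6 lay above the untransfected arrays without overlap (11.6% of probes) and Il1a below them (15.8% of probes). Csf3 passed after quantile normalization (adjusted p = 0.00424), after scaling over probes detected on all arrays (0.016) and with an intensity trend (0.0124). Both calls were lost without siErm array 2, without siErm array 3, with the replicate block and in the fit of these groups alone. Csf2's was also lost without siErm array 1, and Il6's without untransfected array 2. Without untransfected array 2 or 1, Csf2 was at 2.03 or 4.64 and Il6 at 2.64 or 4.27.

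In siPea3 cells Csf2 rose by 4.52 ± 0.57, 23.0-fold (adjusted p = 0.00216), and Il6 rose by 4.93 ± 0.52, 30.5-fold (adjusted p = 0.000696). Both calls held in all 12 alternative fits, although Csf2's size ran from 3.22 without untransfected array 2 to 5.83 without untransfected array 1, and Il6's from 4.11 to 5.75 likewise. Csf3 differed by 0.63 ± 0.29 (adjusted p = 0.201) and did not pass as deposited. It passed after quantile normalization (0.99, adjusted p = 0.0103) and after scaling over probes detected on all arrays (0.95, adjusted p = 0.0201). The median log2 change of all probes was -0.28 in this comparison, and relative to it Csf3 differed by 0.91, Csf2 by 4.80 and Il6 by 5.21. Called higher were 2 of 5 members, against 2.55% of all probes, and 0 lower, against 3.81%. All 3 genes lay above the untransfected arrays without overlap (9.48% of probes), while Il1a (-0.06 ± 0.28) and Lif (-0.19 ± 0.70) did not pass.

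**Figure D2:**
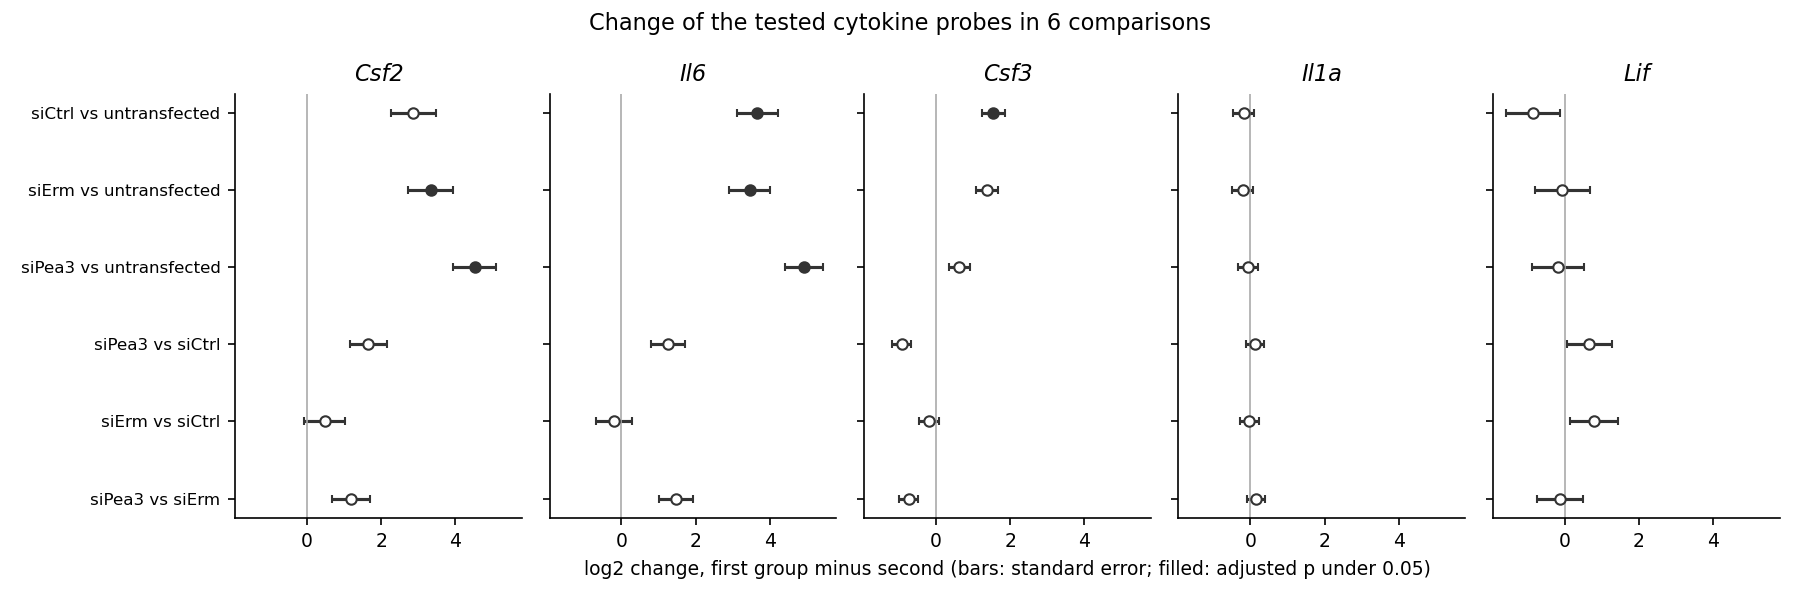
Log2 change (first group minus second) of the 5 tested cytokine probes in 6 comparisons, with the standard error as a bar and filled points for an adjusted p under 0.05. The 6 filled points all stand in comparisons with untransfected cells, for Csf2, Il6 and Csf3.

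Cells given the Pea3 siRNA were compared with siCtrl cells. Csf2 differed by 1.66 ± 0.51 on the log2 scale, 3.15-fold higher in siPea3 cells, and Il6 by 1.27 ± 0.46, 2.40-fold higher. Csf3 differed by -0.92 ± 0.26 and was 1.89-fold lower. None of the 3 passed over all probes (adjusted p = 0.253, 0.296 and 0.227), where 0.0239% of probes were called higher and 0.012% lower. At an unadjusted limma p under 0.05, 2 members (Csf2 and Il6) were higher and 1 (Csf3) was lower, against 2.78% and 10.6% of all probes. Groups did not overlap for Csf2, as for 2.84% of probes on the higher side, and for Csf3, as for 12.4% on the lower side.

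The tested probes shifted lower in this comparison, with a median of -0.24 over these 16724 probes. Without the filter on dim probes the median was -0.07 over 33002 probes. Relative to the median of -0.24 Csf3 differed by -0.68, Csf2 by 1.90 and Il6 by 1.51. Without siPea3 array 2, which stood apart, the changes were 1.77 ± 0.56 for Csf2, 1.5 ± 0.46 for Il6 and -0.94 ± 0.28 for Csf3. Quantile normalization left Csf3 at -0.66, Csf2 at 1.94 and Il6 at 1.58. Il1a (0.12 ± 0.25) and Lif (0.66 ± 0.62) overlapped between the groups.

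The siErm cells were compared with the same siCtrl arrays. Csf2 was 1.39-fold higher (log2 0.47 ± 0.54, 95% interval -0.72 to 1.66), with no overlap between the arrays, as for 2.57% of probes on that side. Csf3 (-0.18 ± 0.27, -0.78 to 0.42) and Il6 (-0.21 ± 0.49, -1.28 to 0.86) overlapped. Limma called 0 members and 0% of all probes, and 339 probes had an unadjusted p under 0.05 (1.08% higher and 0.945% lower), with 0 members among them. In the direction seen in siPea3 cells the interval of Csf2 reached 1.66, that of Il6 0.86 and that of Csf3 -0.78.

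Set directly against siErm cells, siPea3 cells had 2.78-fold more Il6 signal (log2 1.48 ± 0.46, adjusted p = 0.366) and 2.27-fold more Csf2 signal (1.19 ± 0.51, adjusted p = 0.47). Csf3 was 1.67-fold lower (-0.74 ± 0.26, adjusted p = 0.406). These members did not pass, in a comparison where 0.00598% of probes were called higher and 0% lower. At an unadjusted limma p under 0.05, Csf2 and Il6 were higher and Csf3 lower, against 2.31% and 7.98% of probes. All 3 genes were without overlap, as for 2.73% of probes on the higher and 10.9% on the lower side. Relative to the median of all probes (-0.20) the changes were 1.68 for Il6, 1.39 for Csf2 and -0.54 for Csf3.

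Because Csf2, Il6 and Csf3 were read on the same arrays, the ratio of a pair of them on each array is free of that array's scale. The log2 ratio of Csf2 to Csf3, taken relative to its siCtrl mean, was 1.97, 2.19, 3.12 and 3.01 on the siPea3 arrays, -0.12, -0.34 and 0.46 on the siCtrl arrays and 0.84, -0.08 and 1.19 on the siErm arrays. The siPea3 arrays lay above all others. Il6 to Csf3 gave 2.15, 1.42, 2.79 and 2.38 on the siPea3 arrays, -0.50, 0.59 and -0.10 on the siCtrl arrays and -0.16, -0.15 and 0.21 on the siErm arrays, again with siPea3 above. The ratio therefore differed 5.96-fold (log2 2.57) for Csf2 and Csf3 and 4.54-fold (2.18) for Il6 and Csf3 between siPea3 and siCtrl cells. Between siPea3 and siErm cells it differed 3.80-fold (1.93) and 4.64-fold (2.22). Each of these ratios sets a gene with higher mean signal in siPea3 cells against one with lower mean signal there. The share of other probe pairs that part without overlap was not counted.

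An exact 2-sided permutation test, with p as 2 times the smaller tail, gave p = 0.0571 for each of these 4 differences, the smallest that 35 splits allow under this definition, and an adjusted p of 0.0857 over the 6 differences tested. They therefore did not pass. Counting instead the splits with at least the same absolute difference gave an exact permutation p of 0.0286, adjusted 0.0429, which passes. The first definition was computed first. The second was computed after that value was seen, and the first was kept as the main value with both known, so the pass is not counted as a result. Both treat the arrays as unpaired, although replicate numbers were taken to pair siPea3 with siCtrl arrays. Within the 3 shared numbers the mean differences from siCtrl were 2.43 for Csf2 and Csf3 and 2.12 for Il6 and Csf3, and 3 pairs are too few for an exact p under 0.05. The ratio of Csf2 to Il6 differed by 0.39 on the log2 scale from siCtrl and by -0.29 from siErm cells, with overlapping arrays and an exact permutation p of 0.457 each.

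**Figure D3:**
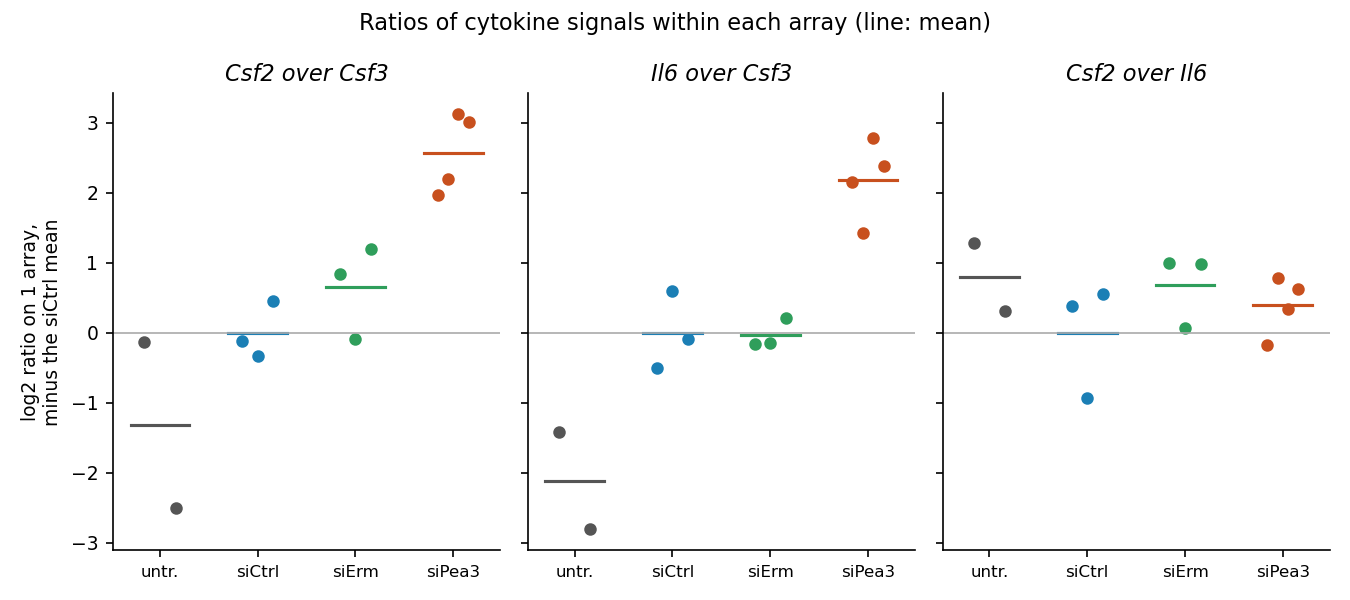
Log2 ratio of the signals of a pair of cytokine probes on each array, minus the mean of the siCtrl arrays, by group, with the group mean as a line. The siPea3 arrays lie 1.97 to 3.12 above the siCtrl mean for Csf2 over Csf3 and 1.42 to 2.79 above it for Il6 over Csf3, and overlap with siCtrl for Csf2 over Il6.

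Likeness of pattern was described over 9041 probes with 1 symbol and a value on all 12 arrays, as the root mean square difference of log2 signals centred on their means. The cytokine genes themselves were left out of the ranking. Nearest to Csf2 among the other probes were Mab21l3 (0.42), Abca8b (0.47) and Ccl7 (0.49), where the median difference of all probes from Csf2 was 1.78. Nearest to Il6 among the others were Ccl7 (0.51), Inka1 (0.55) and Serpinb9b (0.59), where the median from Il6 was 1.86. Ccl7 encodes a chemokine that attracts monocytes, and its geometric mean signal was 108 in untransfected, 904 in siCtrl, 680 in siErm and 1760 in siPea3 cells. Csf2 and Il6 differed from each other by 0.57, less than Serpinb9b from Il6. Nearest to Csf3 were Dusp28 (0.16), Irgm1 (0.20), an interferon-induced GTPase, and Rnf135 (0.23), a ubiquitin ligase of the RIG-I pathway. The median difference of all probes from Csf3 was 0.721. Irgm1 showed geometric means of 237, 543, 469 and 303 in the same order of groups. Csf3 stood 1.54 from Csf2 and 1.56 from Il6. Patterns with small ranges give small differences, so these values do not compare between Csf3 and the others.

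No receptor of these cytokines that could be tested was called in any comparison. Csf3r, the receptor of Csf3, had a mean signal of 251 ± 13.4 (SD, n = 2) in untransfected, 245 ± 41.2 (n = 3) in siCtrl, 252 ± 92.9 (n = 3) in siErm and 206 ± 14.2 (n = 4) in siPea3 cells. Il6st, the subunit shared by Il6 and Lif, had 120 ± 11.1, 161 ± 26.6, 136 ± 11 and 166 ± 36.9 in the same order. Of its 2 probes, the one with the higher mean log2 signal was used. Il6st lay above the untransfected arrays without overlap in siCtrl (log2 0.41 ± 0.28) and siPea3 cells (0.44 ± 0.27), as for 12.6% and 9.48% of probes. Csf3r differed by -0.285 ± 0.291 between siPea3 and untransfected cells. Il1r1, which binds interleukin-1, had means of 20.0 to 28.8, and its partner Il1rap was low, at means of 1.32 to 3.6. The decoy receptor Il1r2 was close to background, at means of 0.565 to 0.907, and was detected on 1 siCtrl and 1 siPea3 array. The Csf2 receptor subunits Csf2rb and Csf2rb2 and the Il6-binding subunit Il6ra were detected on no array, and Csf2ra on 1 siPea3 array. Csf1r and Lifr had no probe in the annotation used. Of 11 receptor genes 5 were tested, with 0 called in the 6 comparisons. At an unadjusted p under 0.05 there was 1, Il1rap, lower in siPea3 than in untransfected cells, where 18.6% of all probes were lower at that threshold.

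Other genes of these pathways were taken from 4 lists of 58 ligands, receptors, signalling genes and genes of processing and mRNA decay, of which 47 had a probe and 36 were tested. Called higher against untransfected cells were 2 in siCtrl, 2 in siErm and 3 in siPea3 cells, and called lower were 0, 0 and 3. Over all probes 0.903%, 0.7% and 2.55% were called higher and 0.12%, 0.0837% and 3.81% lower. In the 3 comparisons between siRNAs 0 were called, with 6 (siPea3 against siCtrl), 0 (siErm against siCtrl) and 6 (siPea3 against siErm) at an unadjusted p under 0.05, 1 of them (against siErm) higher. The 6 lower against siCtrl stand beside 10.6% of all probes, and the 5 lower against siErm beside 7.98%. The median log2 change of the 36 was 0.097, -0.018 and -0.21 against untransfected cells, where that of all probes was -0.06, -0.09 and -0.28.

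All those called higher belong to the list of processing and decay. Casp1, the protease that matures Il1b, had a mean signal of 88.5 ± 5.49 in untransfected, 361 ± 118 in siCtrl, 261 ± 33.5 in siErm and 297 ± 41.5 in siPea3 cells, and rose in all 3 (log2 1.98 ± 0.30, 1.56 ± 0.30 and 1.74 ± 0.29). Its siErm call held in 3 of 11 alternative fits. That call was lost without any 1 of the 5 arrays, without the filter on dim probes (adjusted p = 0.126) and with the replicate block (0.123). The siCtrl call of Casp1 held in 8 of 11 alternative fits. It was lost without untransfected array 1, with the block (0.0502) and in the fit of these groups alone (0.228). The siPea3 call of Casp1 held in 10 of 12 alternative fits and was lost without untransfected array 1, among others. Zfp36 (tristetraprolin), which binds cytokine mRNAs and promotes their decay, had 19.5 ± 1.44, 73.0 ± 17.8, 70.2 ± 10.2 and 50.9 ± 16.5 and rose in all 3 as well (adjusted p = 0.0318, 0.0385 and 0.0397). Its calls in siCtrl and siErm cells were lost without any 1 of the 5 arrays, and that in siPea3 cells held in 1 of 6 such fits. Casp4, the inflammatory caspase that senses lipopolysaccharide in the cytosol, had 32.5 ± 15.2, 71.5 ± 8.7, 80.4 ± 9.43 and 101 ± 4.64 in the same order. It was called in siPea3 against untransfected cells (adjusted p = 0.00829), a call that held without any 1 array and was lost in the fit of these groups alone (0.072). In siCtrl (log2 1.21 ± 0.31, adjusted p = 0.111) and siErm cells (1.38 ± 0.31, 0.0751) it did not pass. Between siPea3 and siCtrl cells it differed by 0.51 ± 0.26 (adjusted p = 0.403).

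The genes called lower in siPea3 than in untransfected cells were a pair of ligands and a receptor-like inhibitor. Il11, of the Il6 family, fell from 1240 ± 781 to 216 ± 33.5 (log2 -2.38 ± 0.46, adjusted p = 0.0149), with 387 ± 160 in siCtrl and 339 ± 121 in siErm cells. That call was lost without untransfected array 1 (-1.69, adjusted p = 0.148), with the replicate block (0.0595) and in the fit of these groups alone (0.0595). Il33, of the interleukin-1 family, fell from 462 ± 188 to 102 ± 39.7 (-2.21 ± 0.52, adjusted p = 0.0323), while siCtrl cells had 480 ± 250 and siErm cells 417 ± 148. This call held in 3 of 6 fits without 1 array and was lost without untransfected array 1 (-1.78, adjusted p = 0.233) or siPea3 array 3 (0.066) or 4 (0.0654). It was also lost with the replicate block (-1.65, 0.0646), without the filter (0.0596) and with these groups alone (0.087). Against siCtrl cells Il33 in siPea3 cells differed by -2.19 ± 0.45 without overlap and did not pass (adjusted p = 0.13). Sigirr, which dampens signalling by interleukin-1 family receptors, fell from 89.9 ± 28.6 to 27.7 ± 5.17 (adjusted p = 0.0382), a call that held without 1 array in 1 of 6 fits. Over all 12 alternative fits it held in 2.

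**Figure D4:**
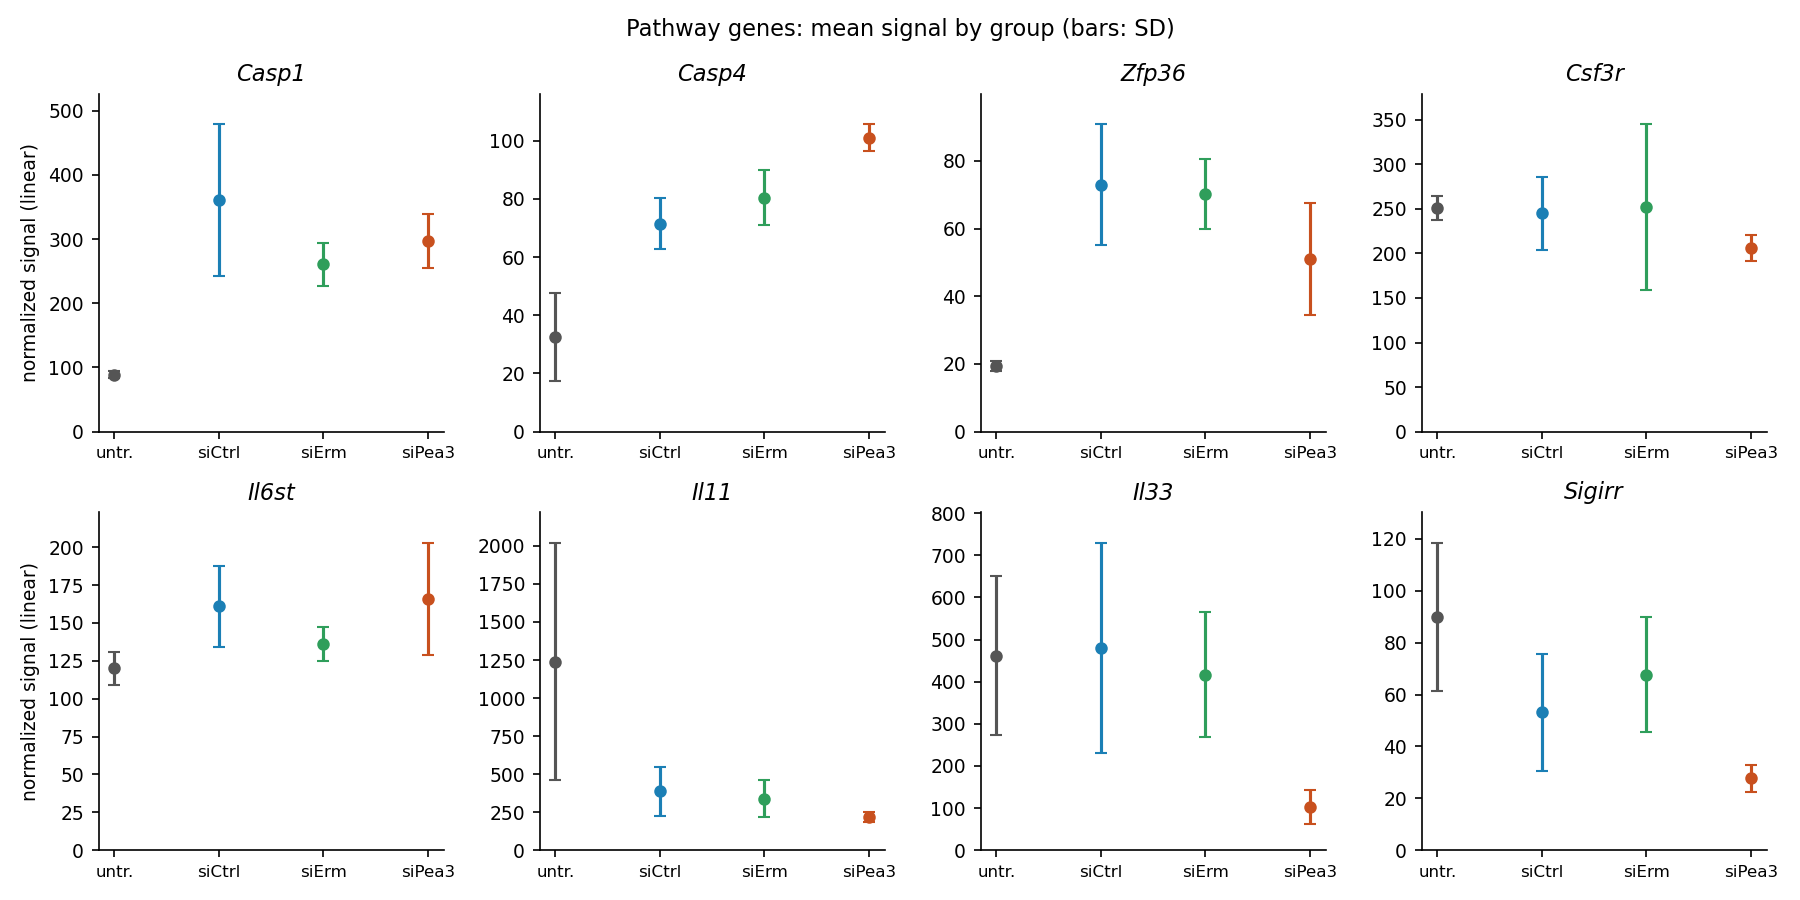
Mean normalized signal (linear axis from 0) of 8 genes of the cytokine pathways in the 4 groups, with the standard deviation over arrays as a bar. Casp1, Casp4 and Zfp36 lie higher in the transfected groups, and Il33 is at 102 in siPea3 cells against 417 to 480 elsewhere. The means are 206 to 252 for Csf3r and 120 to 166 for Il6st.

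The epithelial keratins Krt8 and Krt18 differed between the same groups. Krt8 signal was 1320 ± 209 in untransfected, 774 ± 184 in siCtrl, 678 ± 98.1 in siErm and 410 ± 121 in siPea3 cells, and Krt18 was 407 ± 134, 124 ± 48.1, 110 ± 23.2 and 73.3 ± 20.0. Both fell in siPea3 against untransfected cells (adjusted p = 0.0121 and 0.00471), calls that were lost without untransfected array 1. Krt8's call held in 10 of 12 alternative fits, with an adjusted p of up to 0.0744, and Krt18's in 11 of 12. The summed signal of the 6 epithelial markers was 1740 to 1850 on untransfected, 822 to 1260 on siCtrl, 718 to 973 on siErm and 422 to 745 on siPea3 arrays. Krt8 and Krt18 made up most of that sum. Cldn4 had means of 51.9, 65.5, 58.2 and 55.0 in the same order and Krt19 of 16.7, 13.0, 17.9 and 9.91, and neither was called in any comparison. The summed signal of the 6 fibroblast markers was 28.8 to 63.6, 18.4 to 34.4, 20.8 to 27.0 and 17.3 to 25.4, so siPea3 and siErm arrays lay below the untransfected arrays. Among these Col3a1, Pdgfra and Pdgfrb differed by -1.25, -1.24 and -1.25 on the log2 scale between siPea3 and untransfected cells and did not pass (adjusted p = 0.137, 0.151 and 0.147). Col1a1 differed by -0.58 and Col1a2, in the other direction, by 0.64, and neither passed (adjusted p = 0.697 and 0.379). Col3a1 and Pdgfrb were also lower than in untransfected cells in siCtrl (-1.44 and -1.05) and siErm cells (-1.28 and -1.47). Pdgfra differed by -0.33 and -0.41 there, and none of these passed. Thy1 was not tested. The summed signal of 3 neutrophil markers with a probe was 3.82 to 11.3, 13.6 to 48.5, 14.3 to 20.7 and 11.5 to 62.0 in the same order. Its rise came from S100a8, with means of 4.15, 21.3, 14.6 and 30.8, which did not pass in any comparison. S100a9 was detected on no array and did not rise (2.21, 1.56, 1.72 and 2.01). Mpo was near background (1.19, 2.40, 1.16 and 1.46) and was detected on 1 siCtrl and 1 siPea3 array. The part of these differences in the cytokine values was not tested.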

How the data were processed

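RNA of 12 MMT cultures was amplified and hybridised to single-colour Applied Biosystems arrays, per the labels' protocols. Per the file headers, the deposited values are normalized intensities, which are linear. Per the file headers, each also has a coefficient of variation, a ratio whose inverse was taken as signal-to-noise. The sources used here name no software, background correction or scaling. All 392662 filled values of the series table equalled those of the separate arrays.

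Between 145 and 438 failed measurements per array were dropped before taking log2. Probes with a signal-to-noise of at least 3 on at least 2 arrays were kept, and 16724 had values in every group. The groups were fitted together over the 12 arrays in limma 3.58.1 (R 4.3.3, lmFit then eBayes), with Benjamini-Hochberg adjustment over these probes and calls at an adjusted p under 0.05. The limma step was tested on simulated data. Ratios of cytokine pairs were compared by exact permutation in scipy 1.17.1, in the 2 comparisons of siPea3 cells with another siRNA. Its 2-sided p was first computed as 2 times the smaller tail, which is reported as the main value. The definition by absolute difference was tried after that value was seen, and the first was kept with both known. The test does not use the replicate numbers. Groups came from the sample titles. The number of arrays limits the precision.

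Genes were named by a rule: all members, their receptors, the 3 probes outside the members nearest in pattern to Csf2, Csf3 and Il6, and listed pathway genes called in any comparison. Marker lists were epithelial, macrophage, fibroblast, lymphocyte, neutrophil and endothelial. Summed signals of the lymphocyte (2.00 to 4.59) and endothelial (1.79 to 4.53) lists were low on all arrays. The members and lists were chosen with earlier results of these data known. Alternatives were no filter, fits of the compared groups alone, quantile normalization, scaling over detected probes, an intensity trend, a replicate block and leaving out each array.

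Same-numbered arrays deviated together, over all probes, in siCtrl and siErm (r = 0.225 to 0.312 in 3 pairs) and in siCtrl and siPea3 cells (0.115 to 0.321), so the numbers were taken to pair these groups. The ground for this was weaker for siPea3 cells. There siCtrl array 3 had r = 0.319 with siPea3 array 4, against 0.164 with siPea3 array 3. Likewise siCtrl array 1 had r = 0.087 with siPea3 array 4, against 0.115 with siPea3 array 1. For siErm and siPea3 cells r was -0.042 to 0.08. Untransfected arrays had r = 0.068 to 0.083 with siCtrl, 0.053 to 0.108 with siErm and -0.029 to 0.127 with siPea3 arrays of the same number (2 pairs each). The numbers were not taken to pair untransfected cells with any group, although the replicate block covered those comparisons too.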

Additional observations from a re-analysis of the deposited data

How the results depend on the processing

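The count of cytokine genes called in siCtrl against untransfected cells, 2 as reported, was 1 with no filter on dim probes, 0 with only the arrays of these groups, 0 with the replicate block and 1 to 2 without 1 array; quantile normalization, scaling over detected probes and an intensity trend gave 3. In siErm against untransfected cells it was 0 with only the arrays of these groups, 0 with the replicate block and 0 to 2 without 1 array, and 3 under the same 3 settings. In siPea3 against untransfected cells it was 3 with quantile normalization or scaling over detected probes, by adding Csf3, and 2 in the other alternatives run. In the comparisons between siRNAs it was 0 in every alternative run. The replicate block changed no cytokine call in the paired comparisons (siPea3 or siErm with siCtrl), but gave 0 probes in place of 6 for siPea3 against siCtrl. Fits of the compared groups alone hold fewer samples. In the replicate block siPea3 array 4 alone carries its number, so it adds nothing to the comparisons. The siPea3 against siCtrl estimates with the block therefore equal those without that array (Csf2 1.598, Csf3 -0.83, Il6 1.287). The block also left 5 residual degrees of freedom, against 8 in the main fit. The cause of the other lost calls was not tested.

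The differences between Csf3 and the others in siPea3 cells (2.57 and 2.18 against siCtrl, 1.93 and 2.22 against siErm) did not pass (adjusted p = 0.0857) but passed by the absolute-difference exact p (adjusted 0.0429), added after seeing the data. Without 1 array they ran from 2.39 to 2.80, 1.94 to 2.48, 1.56 to 2.20 and 2.02 to 2.47, where the exact permutation test could not reach 0.05. The difference between Csf2 and Il6 ran from -0.073 (without siCtrl array 2) to 0.668 against siCtrl and from -0.596 to -0.101 against siErm.

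Estimates near 0 turned sign. The other end of their range without 1 array was -0.726 and -0.667 (Lif, siErm and siPea3 against untransfected), -0.195 and 0.303 (Il1a, siPea3 against untransfected and siCtrl), -0.395, -0.425 and -0.126 (Csf3, Il6 and Il1a, siErm against siCtrl) and -0.762 (Lif, siPea3 against siErm). Lif against untransfected cells turned in siErm cells to 0.003 (quantile), 0.41 (without untransfected array 2) and 0.571 (without siErm array 2), and in siPea3 cells to 0.132 (scaling over detected probes), 0.051 (replicate block), 0.286 (without untransfected array 2) and 0.175 (without siPea3 array 4). Il1a in siPea3 against untransfected cells turned to 0.315 (quantile), 0.262 (scaling over detected probes), 0.016 (without untransfected array 2), 0.043 and 0.004 (without siPea3 array 2 or 4), and against siCtrl to -0.011 (without siPea3 array 3). In siErm against siCtrl cells Csf3 turned to 0.004 (without siErm array 3), Il6 to 0.182 (without siCtrl array 2) and Il1a to 0.009 (quantile), 0.018 (scaling over detected probes), 0.154 (without siCtrl array 2) and 0.022 (without siErm array 3). Lif in siPea3 against siErm cells turned to 0.144 (scaling over detected probes), 0.241 (replicate block, and without siPea3 array 4) and 0.535 (without siErm array 3).

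Counts over all probes ran from 0 to 336 in siCtrl, 16 to 297 in siErm and 140 to 1706 in siPea3 against untransfected cells (171, 131 and 1065 as reported), 0 to 43 in siPea3 against siCtrl (6) and 0 to 13 in siPea3 against siErm (1). In siPea3 against untransfected cells 427 higher and 638 lower became 927 and 524 (quantile) and 941 and 555 (scaling over detected probes). Signal near background limits Lif.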
